A study of Rattus norvegicus with 2 samples.

Results

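Otor, Otos, Coch, Pou3f4 and Tbx18 are genes that mark the fibrocytes and the mesenchyme of the inner ear. They were followed here in single cells of the rat cochlear duct at postnatal day 1 (P1) and postnatal day 7 (P7). They were taken as the rows that carry these symbols in the deposited gene lists, which gave 5 of 32623 genes, each on 1 row. The cells came from Sprague-Dawley rats with no genetic change or treatment given in the labels, and the study describes the cell suspensions as pooled. By the study's account, the duct was separated from spiral ligament, stria vascularis and spiral ganglions by microdissection before dissociation. How much of these tissues stayed in either library was not measured. Each age was sequenced as 1 droplet library. P1 had 14068 cell barcodes with 114285848 unique molecular identifiers (UMIs, the tags that count single RNA molecules), and P7 had 14501 barcodes with 101264868 UMIs. Since an age is 1 library, age and library cannot be told apart, and the ages were compared without a test or p-value. All intervals are exact 95% intervals for counting error alone.

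Cochlear fibrocytes are connective tissue cells of the spiral ligament and spiral limbus. They build the matrix that anchors the sensory epithelium and carry potassium from the epithelium back towards the stria vascularis through gap junctions. They arise from the otic mesenchyme and mature during the postnatal weeks before hearing starts. Otor encodes otoraplin, a small secreted protein of the MIA family. Otos encodes otospiralin, a small secreted protein of limbus and ligament fibrocytes that hearing depends on. Coch encodes cochlin, an abundant matrix protein of the inner ear that is mutated in an inherited form of deafness and vestibular loss. Pou3f4 is a POU domain transcription factor of the otic mesenchyme that is mutated in X-linked deafness, and Tbx18 is a T-box transcription factor that the otic fibrocytes need to form.

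The upstream sequences of the secreted members are shown because Otos and Coch varied most among the cells described below and Otor was the member found in nearly all of them. Each is the 250 bases before the annotated start in RefSeq, assembly GRCr8, read 5′ to 3′ on the strand of the gene. Capitals mark a match to TATAAA on either strand. The Otor stretch is chr3:150868636-150868885 on the plus strand, the Otos stretch chr9:100665899-100666148 on the minus strand and the Coch stretch chr6:74766297-74766546 on the plus strand.
Otor: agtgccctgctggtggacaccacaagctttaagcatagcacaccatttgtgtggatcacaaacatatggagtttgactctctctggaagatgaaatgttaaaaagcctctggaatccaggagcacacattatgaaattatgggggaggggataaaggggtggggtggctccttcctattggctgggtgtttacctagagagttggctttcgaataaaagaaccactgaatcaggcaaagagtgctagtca
Otos: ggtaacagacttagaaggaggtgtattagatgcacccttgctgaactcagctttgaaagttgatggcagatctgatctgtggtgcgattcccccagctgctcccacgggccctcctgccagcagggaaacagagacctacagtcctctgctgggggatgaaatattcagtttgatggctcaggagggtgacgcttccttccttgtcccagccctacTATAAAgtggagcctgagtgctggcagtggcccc
Coch: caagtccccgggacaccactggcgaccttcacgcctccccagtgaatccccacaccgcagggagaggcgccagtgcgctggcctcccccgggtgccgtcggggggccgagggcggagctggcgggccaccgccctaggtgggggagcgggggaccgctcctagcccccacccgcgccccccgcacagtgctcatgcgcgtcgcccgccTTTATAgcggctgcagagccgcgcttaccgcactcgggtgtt

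In the Otos stretch TATAAA stood 34 to 29 bases before the start. In the Coch stretch the match lay on the opposite strand, 42 to 37 bases before the start. The Otor stretch, and those of Pou3f4 (chrX:79974558-79974807, plus strand) and Tbx18 (chr8:97559966-97560215, minus strand), held no match. TATAAA on either strand was found in 12.9% of 33469 promoters of the same length. The octamer ATGCAAAT, a motif of POU factors, was in 1.56% of them and the T-box motif AGGTGTGA in 0.959%, and neither was in the window of any member. The stretches differed in composition. Coch had 74.0% G and C with 27 CpG pairs, whereas Otor had 46.0% with 1 CpG and Otos 54.4% with 3, against medians of 51.2% and 5 over all promoters. These matches describe letters and are not binding sites.

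After the limits of the study on genes, UMIs and mitochondrial share, 12779 P1 cells (median 6565 UMIs) and 12581 P7 cells (median 6878 UMIs) were kept. They were clustered across both libraries without using any listed gene. Of 22 clusters, 8 were led by no list of another cell class and were taken as mesenchymal (MC1 to MC8). They held 9226 P1 cells, 72.2% of those kept, and 7679 P7 cells, or 61.0%. Of 13 mesenchyme markers, 11 were found in at least 10% of these cells at P1 and 12 at P7, and on average the list stood 1.93 above the other classes on the log2 scale at P1 and 1.97 at P7. It was weakest in MC4, MC5 and MC6, where the mean lay between 0.19 and 0.60. The labels name cells of the greater epithelial ridge, an epithelial tissue, but Epcam, an epithelial adhesion gene, was at 4.03 CPM (UMIs of a gene at a common sum of UMIs in every group of cells) at P1 and 5.39 CPM at P7 in the mesenchymal cells. In the epithelial-like cells, which numbered 271 at P1 and 211 at P7, it was at 1176 and 1937 CPM.

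The mesenchymal clusters are named here by number and leading genes. MC1 was led by Ibsp, Gdf10, Col8a1 and Sfrp4, MC2 by Lepr, Col15a1, C7 and Dcn, and MC3 by Colec11, Ltbp2, Aqp1 and Dlx5. MC4 was led by Cav1, Sp5, Nkd2 and Ccn3, MC5 by Pmch, Asb9, Maob and Coch, and MC6 by Gcg, Otos, Car3 and Cnmd. MC7 was led by Calb2, Aldh1a2, Kcnk2 and Osr2, and MC8 by genes of dividing cells such as Cenpf, Top2a and Mki67. Ratios between the ages within a cluster rest on the integration that placed P1 and P7 cells in 1 cluster. When the libraries were merged without it, 3 of 11 mesenchymal clusters held at least 50 cells of both ages, so for the rest no such ratio was computed. In these 3, Otor went from 14584 to 14951, from 6340 to 5252 and from 1958 to 1279 CPM between P1 and P7. Otos went from 129 to 1327, from 1.79 to 74.0 and from 6.77 to 10.5 CPM in the same order. Coch went from 279.98 to 106.9, from 49.97 to 48.2 and from 29.3 to 52.6 CPM. Cells per cluster ranged from 719 in MC8 to 1627 in MC4 at P1 and from 421 in MC8 to 1671 in MC2 at P7.

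Otor was abundant throughout the mesenchymal cells and these cells held most of it. Its level was 8194 CPM at P1 and 9624 CPM at P7, a log2 ratio of 0.23 (0.23 to 0.24). The mesenchymal cells carried 95.2% of the Otor UMIs of all kept cells at P1 and 91.4% at P7. The epithelial-like cells held Otor at 724 CPM at P1 and 1008 CPM at P7. By in situ hybridization, in contrast, the study reports Otor as nearly restricted to the greater epithelial ridge at P1 and lower there at P7. The cause of this difference was not tested. The mesenchymal clusters fell into a steep order for Otor that hardly changed with age. MC6 was highest, from 18737 CPM at P1 to 21562 CPM at P7, followed by MC5 with 16582 and 19385 CPM. MC7, MC4, MC3 and MC8 followed at both ages, between 6302 and 8002 CPM at P1 and between 5324 and 10261 CPM at P7. MC1 and MC2 were lowest. MC1 had 2087 CPM at P1 and 4444 CPM at P7, the one cluster in which Otor changed by more than 2-fold, and MC2 had 2569 and 3580 CPM. No neighbouring clusters in this order had overlapping intervals. The highest cluster exceeded the lowest 8.98-fold at P1 and 6.02-fold at P7. In MC8, the dividing cells, Otor was lower at P7 (log2 ratio −0.24), and in MC3 to MC7 the ratios lay between 0.08 and 0.36. The ratio of MC3, the smallest of these, turned to −0.04 with mitochondrial, ribosomal protein and haemoglobin genes left out of the total.

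Otos was the member that differed most between the ages. In the mesenchymal cells it was at 46.4 CPM at P1 and 445 CPM at P7, 9.59-fold higher (log2 ratio 3.26, 3.21 to 3.31). It was 1 of 5 members past a 2-fold change in the mesenchymal cells, and among 7960 genes with at least 10 CPM, 10.4% were higher at P7 by that measure and 5.54% lower, 15.9% in all. MC6 held the highest level at both ages, 365 CPM at P1 and 2431 CPM at P7. MC3 followed with 43.6 and 387 CPM and MC5 with 23.1 and 300.2 CPM. In the other 5 clusters Otos was between 1.72 and 4.89 CPM at P1 and between 15.5 and 72.3 CPM at P7. Glia-like cells, which are not known as a source of otospiralin, held 3.599 CPM at P1 and 22.7 CPM at P7, the level of a class that should lack the gene. In MC8 the log2 ratio was 5.39, and 284 of its 344 Otos UMIs at P7 were in 3 cells. Without the 3 cells richest in Otos at each age, MC8 went from 0.799 to 12.7 CPM, MC3 from 11.7 to 296 CPM and MC5 from 11.3 to 132 CPM, whereas MC6 went from 291 to 2081 CPM.

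Coch had nearly the same total level at both ages but moved in opposite directions in different clusters. Over the mesenchymal cells it was at 102 CPM at P1 and 87.3 CPM at P7 (log2 ratio −0.22, −0.27 to −0.17). At P1 MC6 was highest with 528 CPM, ahead of MC5 with 249.96 CPM and MC3 with 76.9 CPM. At P7 MC6 was at 138 CPM, a log2 ratio of −1.94 (−2.03 to −1.84), and MC5 led with 300.2 CPM, followed by MC3 with 157 CPM. MC1 went from 13.3 to 53.0 CPM (log2 ratio 2.00, 1.73 to 2.27) and MC3 was higher by 1.03. Of 8533 genes with at least 10 CPM in 2 or more clusters, 34 (0.398%) were, like Coch, higher by 2-fold in one cluster and lower by 2-fold in another. MC2, MC4, MC5 and MC8 had ratios between 0.19 and 0.27. MC7 had the least Coch, 5.53 CPM at P1 and 3.14 CPM at P7. The first place in the order thus passed from MC6 to MC5 for Coch, whereas MC6 kept it for Otor and Otos. With cells grouped more coarsely into 5 mesenchymal clusters, at a resolution of 0.4, no cluster was lower by 2-fold and the lowest ratio was −0.55. At a resolution of 1.2, of 12 clusters 3 were lower by 2-fold, down to −1.52, and 3 higher, up to 1.84.

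Highest over lowest cluster, Otos spanned 212-fold at P1 and 157-fold at P7 and Coch 95.5-fold at both ages. The lowest clusters held no more of either gene than the glia-like cells did, so these folds depend on levels near background. With a pseudocount of 5 CPM the spread was 55.1-fold at P1 and 119-fold at P7 for Otos, and 50.6-fold and 37.5-fold for Coch. By this measure Otos and Coch passed a 10-fold spread at both ages and the other 3 members did not. Of all genes tested, 2.9% passed it at P1 and 3.07% at P7. A 5-fold spread was passed by Otor as well at both ages and by 7.23% and 7.85% of genes. Of the regulators, Tbx18 passed 2-fold at P7 only, beside 29.2% of genes at P1 and 31.1% at P7.

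**Figure D1:**
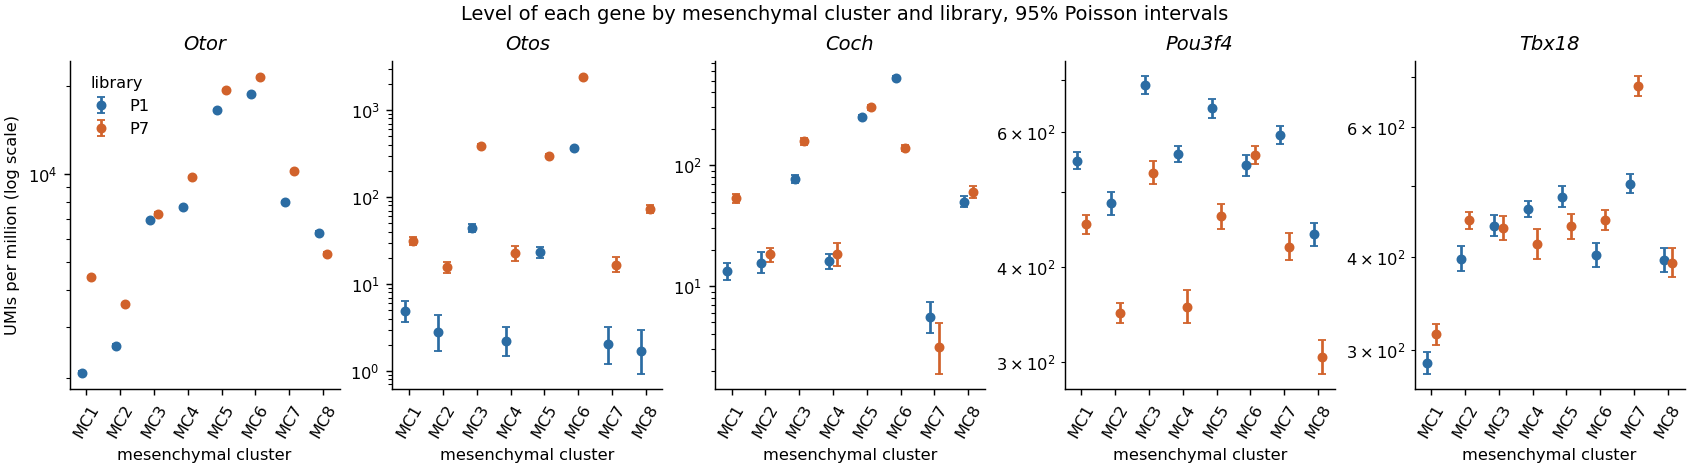
Level of each gene in CPM (log axis, 1 panel per gene) in mesenchymal clusters MC1 to MC8, with P1 in blue, P7 in orange and 95% Poisson intervals as bars. With a pseudocount of 5 CPM, Otos and Coch spread over 37-fold or more between clusters, whereas Pou3f4 and Tbx18 reach 1.82-fold and 2.14-fold at most.

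The regulators Pou3f4 and Tbx18 varied less over the mesenchymal clusters than the secreted members did. Of all genes tested, 52.0% had a wider spread than Pou3f4 at P1 and 37.4% at P7, and 39.3% and 27.9% had a wider spread than Tbx18. Pou3f4 was at 565 CPM at P1 and 434.5 CPM at P7 (log2 ratio −0.38, −0.40 to −0.36). The highest cluster exceeded the lowest 1.57-fold at P1, from 441 CPM in MC8 to 691 CPM in MC3, and 1.84-fold at P7, from 305 CPM in MC8 to 559 CPM in MC6. It was lower at P7 in 7 of 8 clusters, with the largest difference in MC4 (561 to 354 CPM, log2 ratio −0.66). MC6 was the exception, at 542 CPM at P1 and 559 CPM at P7, with an interval of the ratio that included 0, and the ratio was −0.03 with mitochondrial, ribosomal protein and haemoglobin genes left out of the total. At resolutions of 0.4 and 1.2 Pou3f4 was lower in all 5 and all 12 clusters. At P1 the intervals of MC4, MC1 and MC6 overlapped in turn. At P7 those of MC6 and MC3, of MC5, MC1 and MC7 in turn, and of MC4 and MC2 overlapped.

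Tbx18 was at 421 CPM at P1 and 437.5 CPM at P7, a log2 ratio of 0.05 (0.03 to 0.08) whose sign turned to −0.04 with another scaling. MC1 was lowest at both ages, at 288 CPM in the P1 and 315 CPM in the P7 library. MC7, the cluster led by Calb2 and Aldh1a2, was highest at P7, going from 503 to 681 CPM (log2 ratio 0.44, 0.37 to 0.50). At P7 the other 6 clusters, from MC6 with 449.5 CPM down to MC8 with 394 CPM, overlapped with their neighbours in the order. Neither regulator changed by 2-fold in any cluster.

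**Figure D2:**
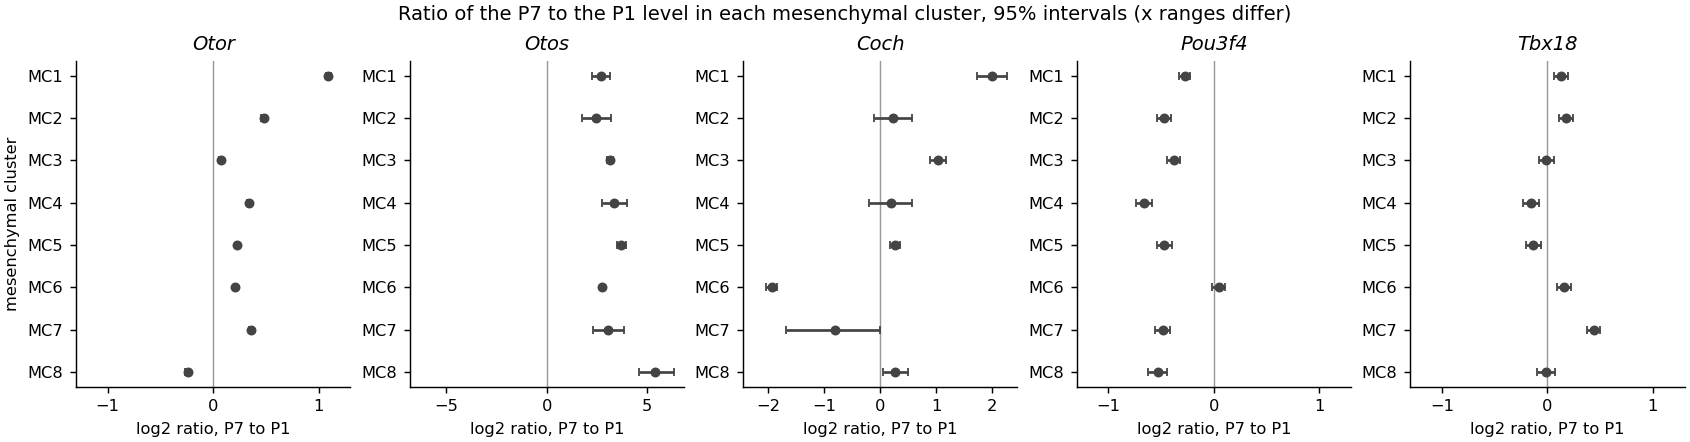
Log2 ratio of the P7 to the P1 level (horizontal axis, range differs by panel) in each mesenchymal cluster (vertical axis), with 95% intervals as bars and a line at no difference. Otos lies to the right of the line in all 8 clusters, and Coch lies near 2.00 in MC1 and near −1.94 in MC6.

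Detection, the share of cells with at least 1 UMI of a gene, was compared after every cell was thinned to 2000 UMIs, since cells differed in depth. Otor was found in 91.6% of 9092 mesenchymal cells at P1 and 94.5% of 7297 at P7 (97.1% and 98.5% without thinning). Pou3f4 was found in 62.6% and 54.2% (91.4% and 85.9% without thinning) and Tbx18 in 53.7% and 56.0% (86.1% and 88.4%). These 3 genes were thus found across the mesenchymal cells. Otos was found in 2.11% of cells at P1 and 7.35% at P7 (4.18% and 15.4% without thinning), and Coch in 10.8% and 9.29% (17.7% at both ages without thinning).

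The glia-like cells set the background for these shares. These cells had a median of 4724.5 UMIs in the P1 library and 5106.5 in the P7 library, against 6695 and 7294 in the mesenchymal cells. After thinning, Otor was found in 34.1% of them at P1 and 44.8% at P7 (60.8% and 77.9% without thinning). Otos was found in 0.560% and 3.47%, Coch in 0.896% and 0.682%, Pou3f4 in 3.64% and 2.36% and Tbx18 in 2.75% and 3.29%. Otor, Pou3f4 and Tbx18 were above this background in all 8 mesenchymal clusters at both ages, with intervals apart. Otos was above it in MC3, MC5 and MC6 at both ages and overlapped with it in the other 5 clusters, where this share does not set it apart from the glia-like cells. By level, MC1 (31.3 CPM, 28.1 to 34.8) and MC8 stood above the glia-like cells (20.7 to 24.8 CPM) at P7. Without the 3 cells richest in Otos MC1 was at 22.5 CPM, MC8 at 12.7 CPM and the glia-like cells at 14.6 CPM. The share of cells with Coch was above the background in MC3, MC5, MC6 and MC8 at P1 and in all but MC7 at P7. By level, MC1 (13.3 CPM, 11.2 to 15.6), MC2 (15.7 CPM, 12.8 to 18.95) and MC4 (16.1 CPM, 13.97 to 18.4) also stood above the glia-like cells (6.37 CPM, 4.95 to 8.06) at P1. Without the 3 cells richest in Coch they were at 11.2, 10.3 and 13.2 CPM and the glia-like cells at 4.36 CPM.

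**Figure D3:**
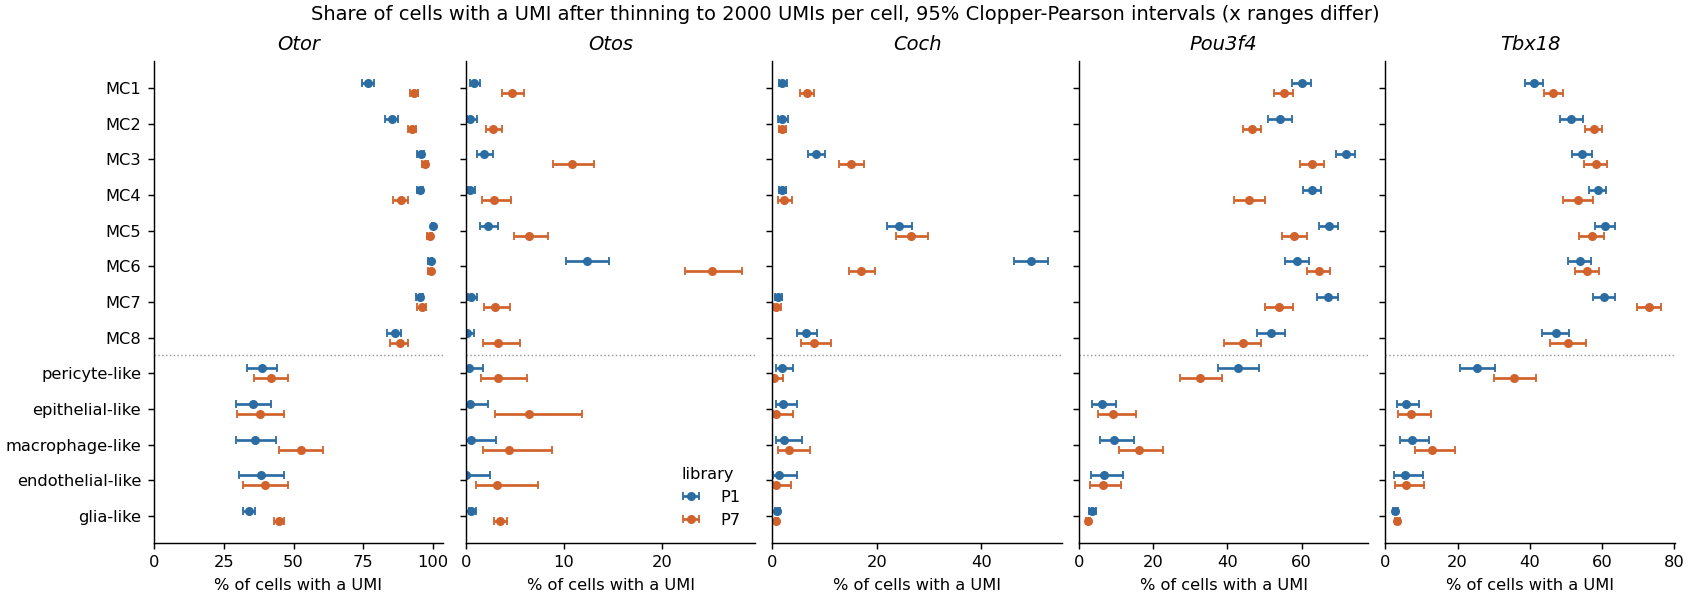
Percent of cells with at least 1 UMI of each gene after thinning to 2000 UMIs per cell (horizontal axis, range differs by panel) in the mesenchymal clusters and, under the dotted line, in 5 other classes, with P1 in blue, P7 in orange and 95% Clopper-Pearson intervals. Otor reaches 34.1% and 44.8% of glia-like cells, and pericyte-like cells stand above the other non-mesenchymal classes for Pou3f4 and Tbx18.

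The share of MC6 cells with Otos was higher at P7 and the share with Coch lower. Otos went from 12.3% (10.2 to 14.6) at P1 to 25.1% (22.3 to 28.1) at P7. Over the same cells Coch went from 49.5% (46.2 to 52.7) to 17.0% (14.6 to 19.6). The median depth of MC6 was 7017.5 UMIs at P1 and 9085 at P7 before thinning. In MC5 Coch was found in 24.3% of cells at P1 and 26.6% at P7, and in MC3 in 8.31% and 14.98%.

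Otos was concentrated in few cells. In MC6, 40 of 918 P1 cells (4.36%) and 121 of 895 P7 cells (13.5%) held at least 5 Otos UMIs among their 2000, and they carried 83.9% and 96.4% of the Otos UMIs of the cluster. Their median was 10.5 Otos UMIs at P1 and 25 at P7. Cells with 40 or more numbered 2 at P1 and 38 at P7. In MC6 both the number of Otos-rich cells, those with at least 5 Otos UMIs, and their median content were thus higher in the P7 library. MC3 had 4 such cells at P1 and 25 at P7, and MC5 had 3 and 11. In MC3 their median content was not higher, at 28.5 Otos UMIs in the P1 and 21 in the P7 library. In MC5 the median was 8 Otos UMIs in the P1 and 20 in the P7 library. These medians rest on the few cells just given. Coch was less concentrated in such cells. The 37 cells of MC6 at P1 and 9 at P7 that reached 5 Coch UMIs held 23.1% and 21.6% of its UMIs.

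**Figure D4:**
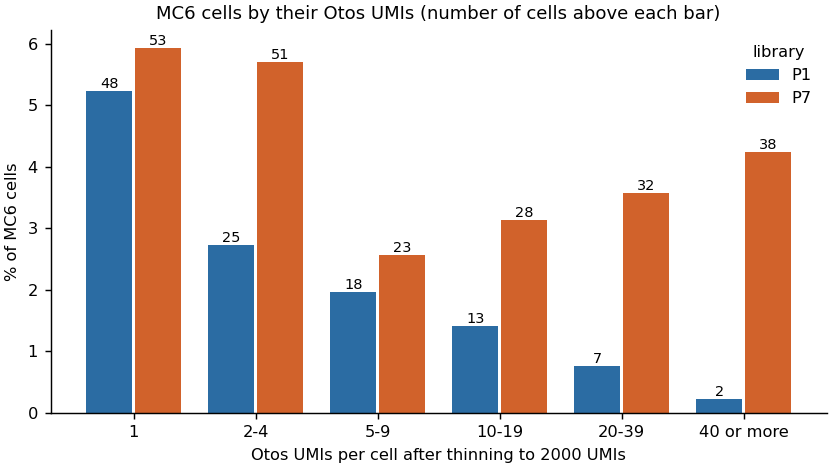
Percent of MC6 cells (vertical axis) by the number of Otos UMIs they hold after thinning to 2000 UMIs (horizontal axis), for P1 in blue (918 cells) and P7 in orange (895 cells), with the number of cells above each bar and cells without Otos left out. P7 cells reach the highest class, 40 or more UMIs, 38 times and P1 cells 2 times.

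Otos and Coch were found together more often than their shares alone would give. Among mesenchymal cells with Otos, 46.9% (39.6 to 54.2) also held Coch at P1, against 10.0% of cells without Otos, and at P7 28.7% (24.9 to 32.8) against 7.75%. Both genes were highest in the same few clusters, so the pair was also compared within clusters. Within MC6 the shares were 67.3% against 47.0% at P1 and 36.4% against 10.4% at P7, and cells with both were 1.36 and 2.15 times the product of the shares. In MC3 at P7 they were 39.6% against 12.0%, and in MC5 at P1, with 27 cells that held Otos, 22.2% against 24.3%. Pou3f4 and Tbx18 occurred together about as often as the product of their shares, at 1.05 times at P1 and 1.01 times at P7. Of the mesenchymal cells, 0.209% held all 5 members at P1 and 0.617% at P7. In MC6 these shares were 1.74% and 2.79%.

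The Otos-rich cells of MC6 were set beside MC6 cells with no Otos UMI, a comparison and a limit of 5 UMIs chosen after the values were seen. At P7 there were 121 Otos-rich cells and 670 without, with median depths of 8318 and 9183 UMIs, and at P1 40 and 805 cells with 6715 and 7069 UMIs. Otor was higher in the Otos-rich cells, at 29235 against 19518 CPM at P7 (log2 ratio 0.58) and by 0.48 at P1. Coch was at 449 against 86.2 CPM at P7 (2.38, 2.20 to 2.56) and at 902 against 491 CPM at P1 (0.88, 0.69 to 1.06). Between the ages Coch was thus lower both in cells without Otos and in the Otos-rich cells. Pou3f4 and Tbx18 differed by −0.03 and −0.08 at P7 and by −0.58 and −0.25 at P1. Past 2-fold, 2.69% of 7664 genes were higher in the Otos-rich cells at P7 and 3.17% lower, and at P1 7.15% of 7190 were higher and 7.55% lower.

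Listed fibrocyte genes also separated these MC6 cells. Of 11 matrix genes tested at P7, 3 were higher and none lower (median log2 ratio 0.37). They were Cnmd, which encodes chondromodulin (3263 against 1617 CPM), Fmod, the collagen-binding fibromodulin (88.4 against 34.0 CPM), and Ucma (84.6 against 8.31 CPM). Ucma reached the minimum of 10 CPM only in the Otos-rich cells, at P1 as well, so it could count only as higher. Of 15 ion transport and metabolism genes, 4 were higher and 3 lower (median 0.03). The higher ones included the gap junction genes Gjb2 (511 against 139 CPM) and Gjb6 (245 against 59.1 CPM) and the calcium-binding protein gene S100b. The lower ones were the carbonic anhydrase Car3 (243 against 1027 CPM), Crym (3297 against 7173 CPM) and the water channel Aqp1 (40.4 against 111 CPM). None of 19 regulators passed 2-fold at P7, whereas of 17 tested at P1 1 was higher, Nr2f1 (1.64), and 3 were lower, Prrx2 (−1.57), Tbx1 (−1.38) and Twist2 (−1.18, with an interval that included 0). Twist2 reached the minimum of 10 CPM only in the cells without Otos, so it could count only as lower. At P1 Cnmd, Fmod, Ucma, Gjb6 and S100b were also higher and Crym lower, whereas Gjb2 differed by 0.69. Haemoglobin and the other red cell markers summed to 50.8 CPM in the Otos-rich cells and 1040 CPM in the rest at P7, led by Hba-a2, and their part in these differences was not tested. Epithelial markers summed to 26.3 and 21.9 CPM, with 6 and 2 of 10 at 0. The list for the greater epithelial ridge, which shares Gjb2, Gjb6 and Epyc with the fibrocyte lists, summed to 798 and 278 CPM at P7, with 4 and 0 of 12 at 0, and to 316 and 177 CPM at P1. Gjb2 was its most abundant gene in both groups, and its part in the differences was not tested. None of the Otos-rich cells was called a doublet.

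**Figure D5:**
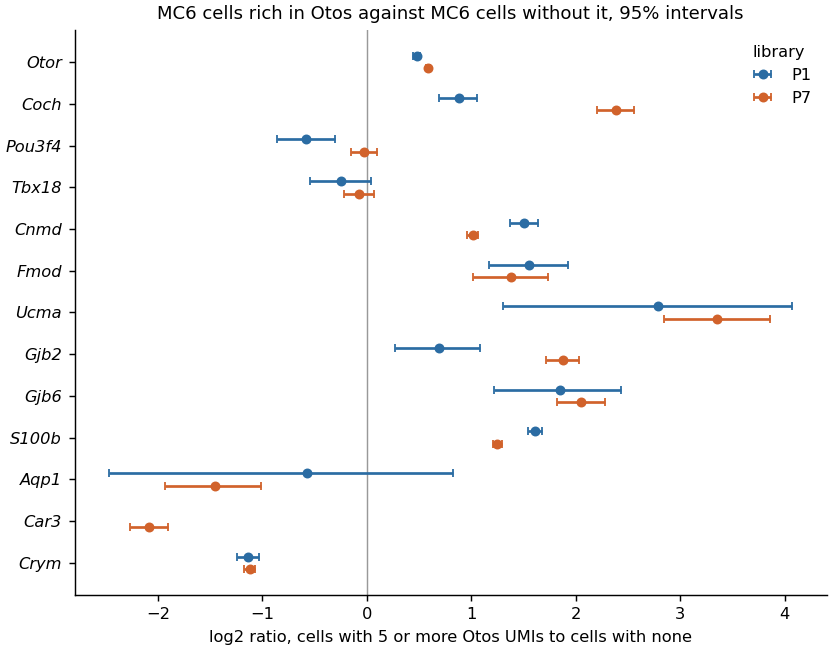
Log2 ratio of the level in MC6 cells with at least 5 Otos UMIs to that in MC6 cells with none (horizontal axis) for the other members and listed fibrocyte genes (vertical axis), with P1 in blue, P7 in orange and 95% intervals that cover counting error only. Coch reaches 2.38 at P7 and Car3 lies at −2.08, with no P1 point for Car3 because the 40 Otos-rich P1 cells held none of its UMIs.

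Other fibrocyte genes of fixed lists were compared between the ages over all mesenchymal cells, beside the 10.4% of genes higher and 5.54% lower and a median log2 ratio of 0.15 over all genes tested. Of 9 matrix genes with at least 10 CPM, 5 were higher at P7 by 2-fold and none lower (median 1.06). With mitochondrial, ribosomal protein and haemoglobin genes left out of the total, 3 of 11 were higher and 1 lower, beside 794 higher and 655 lower of 8787 genes. The lower gene was Emilin2, at 9.52 CPM at P1 and 4.12 CPM at P7 in the main scaling. It reached the minimum only under the other scaling and only through its P1 level, so it could count only as lower. Col11a2, a chain of fibrillar collagen XI, went from 92.9 to 399 CPM and Cnmd from 123 to 373 CPM. Col9a1 and Col9a2, chains of collagen IX, and Epyc were the other 3 of the 5 higher in the main scaling. Of 17 ion transport and metabolism genes, 7 were higher and 2 lower (median 0.70). Car3 went from 11.0 to 173 CPM and Car2, also a carbonic anhydrase, from 12.2 to 63.1 CPM, whereas Isyna1, the enzyme that starts inositol synthesis, went from 336 to 90.3 CPM and Cav1, the main protein of caveolae, from 206 to 85.0 CPM. Kcnj10, a potassium channel, had no UMI in these cells.

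Among 20 regulators of the otic mesenchyme, 4 were higher and none lower (median 0.11). At a minimum of 50 CPM 1 of 13 was higher, beside 237 of 3198 genes in all, and at 1.5-fold 5 of 20 were higher and 2 lower, beside 1907 higher and 1130 lower of 7960 genes. Dlx5, a homeobox gene of the skeleton and ear, went from 1.79 to 47.9 CPM and Runx1 from 3.89 to 11.8 CPM, and Sox9 and Etv5 also passed 2-fold. Dlx5 and Runx1 were under the minimum of 10 CPM at P1 and were tested only through their P7 level, so these 2 of the 4 could count only as higher. Of 6 relatives of the members, Pou3f1 alone passed, from 3.99 to 18.8 CPM, and it too reached the minimum only at P7. At a minimum of 50 CPM 0 of 3 relatives passed, and at 1.5-fold 2 of 6 were higher and 0 lower. Osteoblast markers were higher at P7 as well, with a sum of 40.6 CPM at P1 and 156 CPM at P7, where Dmp1 was the most abundant. In the same cells red cell markers went from 291 to 777 CPM, and the part of either in the list counts was not tested.

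The genes whose levels were most like each member were found by Pearson's r of log2 levels over 38 points, each a cluster in 1 library. These points share libraries, depth and cells, so r is a description. Pou3f4 and Tbx18 were most like each other (0.982), and both were followed by Zic2, Zic5, Twist1 and Pou3f3 in some order, from 0.946 to 0.979. Otor was most like Ptn (0.930), Nkx6-1, Prrx2, Tbx18 and Col26a1. Otos was most like Car3 (0.870), Msx3, Col11a2, Cytl1 and Dapl1, although within MC6 its richest cells held less Car3. Coch was most like Aldh3a1 (0.882), Col9a3, Dapl1, Matn4 and Cytl1. Between members, r was 0.602 for Otos and Coch and 0.446 for Otor and Otos. Otos and Pou3f4 had the lowest value of any pair, 0.257. In merged clusters the lowest was that of Otos and Tbx18, at 0.338, beside 0.341 for Otos and Pou3f4.

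Outside the mesenchymal clusters the glia-like cells, the largest other class, held the members at a small part of their mesenchymal level. In them Otor was at 538 CPM at P1 and 498 CPM at P7, 6.56% and 5.18% of its mesenchymal level, and the other 4 members lay between 3.93% and 7.75% of theirs. Called doublets held 33.3% and 34.3% of the Otor UMIs of this class, and no estimate of free RNA was made. For each 100 Otor UMIs the glia-like cells held 0.669 Otos UMIs at P1 and 4.55 at P7, and the mesenchymal cells 0.567 and 4.62, with intervals that included the mesenchymal value. At P7 150 of the 476 Otos UMIs of the glia-like cells were in 1 cell, and without the cell richest in Otos in each class the values were 3.17 (2.83 to 3.54) in the glia-like and 4.41 in the mesenchymal cells. Coch and Tbx18 at P1 and Tbx18 at P7 were also within the interval. Coch at P7 (0.688 against 0.907) and Pou3f4 (5.99 against 6.90 at P1, 4.05 against 4.51 at P7) were below it.

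Pericyte-like cells departed from these proportions. For each 100 Otor UMIs they held 25.9 Pou3f4 and 18.2 Tbx18 UMIs at P1 and 23.7 and 28.7 at P7, against 6.90 and 5.14 at P1 and 4.51 and 4.55 at P7 in the mesenchymal cells. Their Pou3f4 level was 271 CPM at P1 and 201 CPM at P7 and their Tbx18 level 190 and 243 CPM. After thinning, Pou3f4 was found in 42.9% and 32.7% of them and Tbx18 in 25.3% and 35.7%. Both shares lay above those of the glia-like cells at a similar depth (5237 and 5882 UMIs), whereas Otos (0.309% and 3.31%) did not differ beyond the intervals. Prrx1, also a mesenchymal regulator, was at 110 and 82.9 CPM in them, above its mesenchymal level of 48.1 and 33.5 CPM. Called doublets made up 12.7% and 13.8% of the pericyte-like cells. They held 71.6% of the Otor UMIs of this class at P1 and 59.7% at P7, but 25.4% and 24.5% of its Pou3f4 UMIs and 29.97% and 32.0% of its Tbx18 UMIs. Without them Pou3f4 was at 251 and 193 CPM and Tbx18 at 165 and 211 CPM, and the cells held 68.1 and 44.4 Pou3f4 UMIs and 44.9 and 48.4 Tbx18 UMIs for each 100 Otor UMIs.

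At P7 the endothelial-like, macrophage-like and epithelial-like cells appeared to hold much Otos, at 240, 129 and 110 CPM. In each class 1 cell carried nearly all of it, with 371 of 393, 164 of 181 and 159 of 191 Otos UMIs. Cells called as doublets held 96.2%, 93.4% and 83.8% of these UMIs. Without the 3 cells richest in Otos the levels were 8.67, 9.51 and 14.7 CPM, beside 14.6 CPM in the glia-like cells after the same step.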

How the data were processed

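Cells of the cochlear duct were sequenced by the authors as 1 droplet library per age with the Cell Ranger pipeline (3.1.0 in the matrix headers) on the rat genome rn6. The deposited values are UMI counts per gene and barcode, not normalized. No step against free RNA is stated. The libraries share 60 barcode sequences. The study's limits were applied, which keep barcodes of over 500 and under 5000 genes, a minimum of 500 UMIs and a mitochondrial share below 25%. Kept cells were integrated by canonical correlation and clustered in Seurat 5.3.0 (R 4.3.3) on 1830 of 2000 variable genes, leaving out the 222 listed genes, with 10 components, 20 neighbours and a resolution of 0.8. A cluster took the class of the marker list, other than mesenchyme, with the highest mean log2 ratio, at least 1 with 3 markers in 10% of cells. Clusters led by no such list were taken as mesenchymal, and 2 clusters whose leading genes went against their list stayed unnamed. Of the listed genes, 8 are not among the symbols used here.

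Levels are CPM, a gene's summed UMIs scaled to the total of its cluster and library, with Poisson intervals. They come from 3′ tags, which carry no gene length, and were compared between cells of the same gene. Ratios have conditional binomial intervals and shares Clopper-Pearson intervals, all at 95%. Detection used cells thinned to 2000 UMIs, which left out shallower cells. A fold in a list needed 10 CPM in the higher library, and likeness used a pseudocount of 5 CPM and a minimum of 20 CPM. Scrublet in scanpy 1.11.5 called 622 P1 and 775 P7 cells as doublets, which were kept and removed in an alternative. Python 3.11.15, numpy 2.4.6, scipy 1.17.1 and pandas 2.3.3 were used. The ratios, their intervals, fold calls, thinning and co-detection were tested on simulated data. Clustering, classes, doublet calls and likeness were not. Named were the members, the 5 genes most like each, leading cluster genes, markers of other classes, and genes of the fibrocyte, regulator and relative lists, of which any may be named and the 2 with the largest change each way past 2-fold are. Values of 1 listed gene are not reported here. Members, lists and rules were chosen with earlier results of these data known. Alternatives were merged clustering, other resolutions, limits, scalings, doublets removed and other thinning.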

Additional observations from a re-analysis of the deposited data

Results flagged for a closer look

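Coch was higher at P7 in MC1 by 2.00 on the log2 scale (13.3 CPM at P1, 53.0 CPM at P7) and lower in MC6, at −1.94 (528 CPM at P1, 138 CPM at P7). It is given because 1 gene went opposite ways past 2-fold in clusters of the same libraries, as 34 of 8533 genes did. At P1 the share of MC1 cells with Coch after thinning was 1.90% (1.27 to 2.74), with an interval that overlapped that of the glia-like cells (0.896%, 0.513 to 1.45). With 1 library per age the difference was not tested. The opposite directions held with doublets removed (−1.95 and 2.12), with a mitochondrial limit of 10% (−1.88 and 1.93) and with haemoglobin, mitochondrial and ribosomal protein genes left out of the total (−2.02 and 1.91). All of these keep the integrated clusters, and merged clustering could not give the 2 ratios because most merged clusters held cells of 1 age. In the 3 merged clusters with at least 50 cells of both ages, Coch was not higher at P7 by 2-fold in any. It went from 279.98 to 106.9 CPM in one, with 59 cells at P7. In the others it went from 49.97 to 48.2 and from 29.3 to 52.6 CPM. The opposite directions past 2-fold were thus seen only in integrated clusters. At a resolution of 0.4 the lowest cluster was at −0.55 and the highest at 2.12. At a resolution of 1.2 they were at −1.52 and 1.84, with 3 clusters past 2-fold each way.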

How the results depend on the processing

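No paired analysis was possible because each age has 1 library, and for the same reason no replicate could be left out. The log2 ratios of P7 to P1 in the mesenchymal cells moved beyond their intervals as follows. With a mitochondrial limit of 10% Otor was at 0.28, Otos at 3.37 and Coch at −0.10. With mitochondrial, ribosomal protein and haemoglobin genes left out of the total, every ratio shifted by −0.10, to 0.14 for Otor, 3.17 for Otos, −0.32 for Coch, −0.47 for Pou3f4 and −0.0406 for Tbx18, whose sign turned. Over all kept cells they were 0.13, 3.16, −0.37, −0.47 and −0.0436 in the same order. As means of per-cell CPM, Otor was at 0.12, Otos at 3.14 and Pou3f4 at −0.42. With each mesenchymal cluster given equal weight, an alternative chosen after seeing the data, Otor was at 0.24, Otos at 2.88, Coch at −0.35 and Tbx18 at 0.0854. The difference in detection without thinning was 1.35 points for Otor, 11.2 for Otos, 0.0389 for Coch, whose sign turned, and −5.47 for Pou3f4, and at 1000 UMIs it was 4.24 for Otos. The cause of the moves was not tested. Merged clustering and removal of doublets moved none of these levels or shares beyond its interval, nor did other resolutions for the levels, which alone were run at them. The scaling also changed the split of genes past 2-fold, from 827 higher and 441 lower (65.2% higher) of 7960 to 794 and 655 (54.8%) of 8787. The matrix genes went from 5 higher and 0 lower of 9 to 3 and 1 of 11. More genes passed the minimum of 10 CPM under this scaling, among them Emilin2, the matrix gene counted as lower. These moves thus mix the scaling with the minimum. With a minimum of 50 CPM 1 regulator was higher, against 4, and at 1.5-fold 5 were higher and 2 lower. In merged clusters, 1 of the 5 genes most like Otor and 2 of those most like Coch were the same.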

Other observations

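A hair-cell-like cluster of 22 P1 cells, with Otof among its leading genes, held 43 Coch UMIs (122 CPM, in 16 cells) beside 26 Otor UMIs, or 165 Coch UMIs per 100 Otor UMIs against 1.24 in the mesenchymal cells of that library. The same cells held 7 Otos UMIs, 2 Tbx18 UMIs and no Pou3f4 UMI. At P7 no kept cell fell in this cluster, so the value has no counterpart. Neuron-like cells at P1 (291 cells, median 21162 UMIs) held 22.2 CPM of Coch, or 11.1 UMIs (9.19 to 13.2) per 100 Otor UMIs, whereas Pou3f4 and Tbx18 were within their intervals of the mesenchymal proportions. At P7 the 30 neuron-like cells held no Coch UMI. These clusters were singled out after their values were seen.

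The 2 clusters that stayed unnamed held 462 P1 and 718 P7 cells, of which 51.7% and 54.0% were called doublets, with Otor at 4052 and 5591 CPM. Barcodes removed by the limits held Otor at 3009 CPM at P1 and 2276 CPM at P7.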
